A study of Mus musculus with 9 samples.

Results

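Cytochrome P450 family 4 is a group of haem enzymes of the endoplasmic reticulum that oxidise fatty acids at the far, or omega, end of the chain. The 10 family 4 genes described here were Cyp4a10, Cyp4a12a, Cyp4a12b, Cyp4a14, Cyp4a31, Cyp4a32, Cyp4f13, Cyp4f14, Cyp4f15 and Cyp4v3, found by name among the 24341 genes of the deposited table. Bulk liver RNA was measured in 9 wild-type C57BL/6 mice 48 hours after treatment: 3 mice (2, 5 and 9) received the agonist anti-CD40 antibody FGK45 and 6 control mice (3, 4, 7, 8, 11 and 12) received PBS. The comparison asks how activation of CD40, a receptor on antigen-presenting cells, changed liver gene expression. Neither the sex nor the exact age of these mice is labelled; the study used sex-matched animals and left out those that did not respond to the antibody, and whether the groups here were affected by that selection is not stated. Some of the study's experiments used colonies carrying a Cre driven by the Pdx promoter; the mice here are labelled wild type. Nothing in the labels gives a batch.

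In the liver, omega-hydroxylated fatty acids pass through alcohol and aldehyde dehydrogenases to dicarboxylic acids, which peroxisomes shorten. Cyp4a genes are classic targets of PPAR-alpha, the fatty acid receptor of fasted hepatocytes, and enzymes of this subfamily convert arachidonic acid to 20-HETE. Cyp4f enzymes are best known for hydroxylating leukotriene B4, a neutrophil attractant, which begins its inactivation. Cyp4v3 is the mouse counterpart of human CYP4V2, the gene mutated in Bietti crystalline dystrophy.

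Cyp4f13, Cyp4f14, Cyp4f15 and Cyp4v3 were lower after anti-CD40, Cyp4f14 by far the most. Cyp4f14 stood at 12.7 ± 2.75 FPKM (SD, n = 3) against 130 ± 14.4 in controls (n = 6), a 10.3-fold difference. FPKM is a read count scaled by gene length and library size. Cyp4v3 overlapped the controls, and its call was lost when any 1 anti-CD40 mouse was left out. Cyp4f16 and Cyp4f18, which are not among the 10 genes, were higher. Among the Cyp4a genes, Cyp4a10 was lower by a narrow margin, Cyp4a14 had a lower mean that did not pass the test, and Cyp4a31 had a higher mean that did not pass it. Of the 10 genes, 9 reached the mean of 0.1 FPKM needed for testing. Of these, 5 were lower and 0 were higher at an adjusted p under 0.05 (limma on log2(FPKM + 0.1), Benjamini-Hochberg over 13807 genes), and 3 of the 5 had no overlap between groups. Across all genes tested 45.1% were called, 21.7% lower and 23.5% higher, and 19.6% were lower without overlap. The median log2 fold change of the 9 genes was -1.01, beside 0.0056 over all genes tested.

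Most of the genes lie in 2 groups of neighbours. In mm10 coordinates, the Cyp4a genes lie on chromosome 4: Cyp4a12a (chr4:115299046-115332815), Cyp4a12b (chr4:115411624-115439034), Cyp4a14 (chr4:115486200-115496141), Cyp4a10 (chr4:115518287-115533649), Cyp4a31 (chr4:115563649-115579015) and Cyp4a32 (chr4:115600938-115622366), with Cyp4a14 alone on the minus strand. Cyp4a31 begins 30 kb after the end of Cyp4a10, and Cyp4a12a and Cyp4a12b are 78.8 kb apart. Cyp4f15 (chr17:32685659-32703349, plus strand), Cyp4f14 (chr17:32905070-32917342, minus strand) and Cyp4f13 (chr17:32924688-32947361, minus strand) lie on chromosome 17, with 202 kb between Cyp4f15 and Cyp4f14 and 7.34 kb between Cyp4f14 and Cyp4f13. Cyp4v3 lies alone on the minus strand at chr8:45305802-45333196. All 10 are protein-coding genes.

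The sequences before the start sites of the 3 Cyp4f genes that fell are shown with those of Cyp4f16 and Cyp4f18, 2 relatives that rose. Each is the 250 bases before the start site on the gene's own strand, from RefSeq on GRCm38.p6, with the letters CCAAT on either strand (ATTGG when read on the opposite strand) in capitals. They lie at chr17:32947362-32947611 (- strand), chr17:32917343-32917592 (- strand), chr17:32685409-32685658 (+ strand), chr17:32536307-32536556 (+ strand) and chr8:72009627-72009876 (- strand), in that order.
Cyp4f13: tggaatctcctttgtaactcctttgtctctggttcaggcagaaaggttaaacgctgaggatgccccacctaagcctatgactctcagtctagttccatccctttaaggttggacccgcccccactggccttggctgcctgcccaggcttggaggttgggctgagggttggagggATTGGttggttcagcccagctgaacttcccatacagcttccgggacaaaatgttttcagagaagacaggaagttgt
Cyp4f14: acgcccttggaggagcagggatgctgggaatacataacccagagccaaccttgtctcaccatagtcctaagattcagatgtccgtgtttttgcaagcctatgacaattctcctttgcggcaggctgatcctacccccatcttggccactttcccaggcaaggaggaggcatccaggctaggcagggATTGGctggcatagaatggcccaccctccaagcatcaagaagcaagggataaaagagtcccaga
Cyp4f15: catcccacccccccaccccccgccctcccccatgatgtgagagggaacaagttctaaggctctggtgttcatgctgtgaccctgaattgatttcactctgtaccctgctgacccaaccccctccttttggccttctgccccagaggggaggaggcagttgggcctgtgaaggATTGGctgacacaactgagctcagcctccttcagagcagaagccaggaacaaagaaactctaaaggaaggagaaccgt
Cyp4f16: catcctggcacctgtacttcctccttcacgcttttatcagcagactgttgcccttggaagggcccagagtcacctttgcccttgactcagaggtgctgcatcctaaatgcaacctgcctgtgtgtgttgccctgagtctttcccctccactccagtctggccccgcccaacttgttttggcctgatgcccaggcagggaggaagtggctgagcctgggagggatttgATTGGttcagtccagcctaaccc
Cyp4f18: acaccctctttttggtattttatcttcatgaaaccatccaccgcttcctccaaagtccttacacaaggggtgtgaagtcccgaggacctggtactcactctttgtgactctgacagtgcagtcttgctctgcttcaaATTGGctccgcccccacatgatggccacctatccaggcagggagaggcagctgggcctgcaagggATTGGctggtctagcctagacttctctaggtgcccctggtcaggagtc
A CCAAT box is a common promoter element. It stood 76 bases before the start site in Cyp4f13, 64 in Cyp4f14, 78 in Cyp4f15 and 23 in Cyp4f16. In Cyp4f18 it stood at 113 and 48 bases. The start site used for Cyp4f16 lies at -72 bases from the gene's start in the deposited table, so its distance depends on the annotation. For Cyp4f13, Cyp4f14, Cyp4f15 and Cyp4f18 these starts are the same. Every box was read as ATTGG. The same letters are in 37.9% of 27025 RefSeq promoters of 300 bases (250 before and 50 after the start site), so genes that fell and genes that rose share a common element. The direct repeat DR1, 2 AGGTCA half-sites with any 1 base between them and the form bound by PPAR-alpha with RXR, was searched on both strands and matched none of the 13 family 4 promoters in the table, 5 of them from the 10 genes. The 5 were those of Cyp4a32, Cyp4f13, Cyp4f14, Cyp4f15 and Cyp4v3. The promoters of Cyp4a10, Cyp4a12a, Cyp4a12b, Cyp4a14 and Cyp4a31 were not available, so they were not searched. DR1 in this strict form is in only 0.0444% of all promoters, so its lack in 13 of them tells little. TTCNNNGAA, the form bound by STAT factors, matched Cyp4f13 22 bases before its start site among the 5, and matches 8.47% of all promoters. Of the other forms searched on both strands, one for HNF1 matched Cyp4a32 alone among the 5 (0.437% of all promoters) and one for NF-kB matched none of them (8.18%). A match or its lack says only which letters are in these windows.

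**Figure D1:**
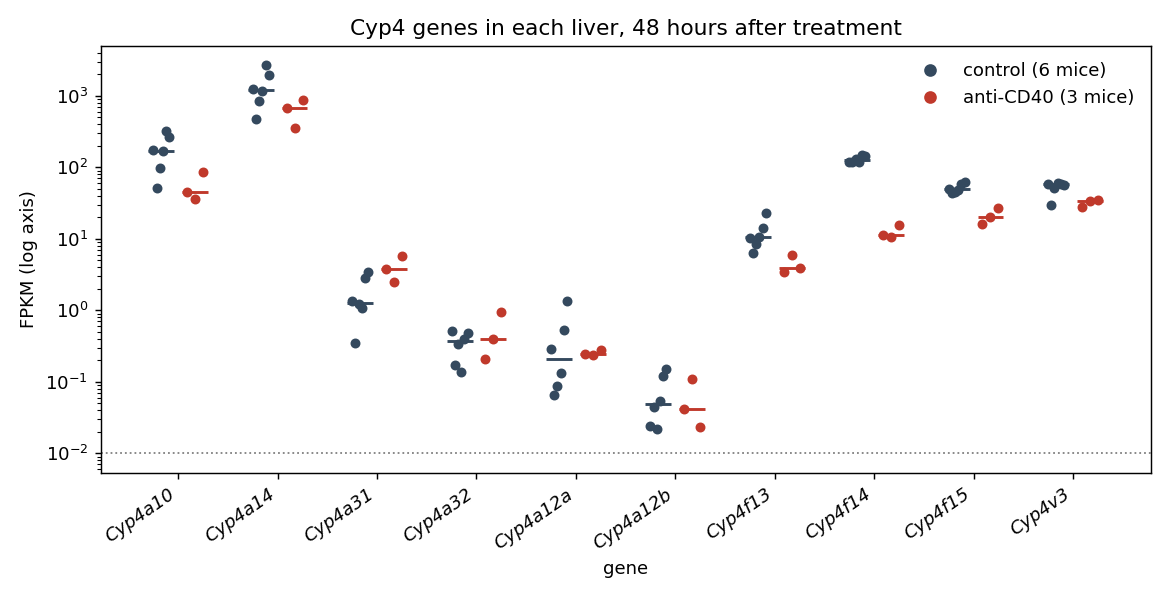
FPKM (log axis) of the 10 family 4 genes in each of the 9 livers, with control mice in dark grey, anti-CD40 mice in red, a bar at each group's median and a dotted line at the table's floor of 0.01. The groups are apart for Cyp4f13, Cyp4f14 and Cyp4f15, while the control mice alone spread 6.22-fold for Cyp4a10.

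Cyp4f14, which hydroxylates leukotriene B4, stood at 11.4, 10.8 and 15.8 FPKM in anti-CD40 mice 2, 5 and 9. In the controls it ranged from 117 to 149 with a median of 126. No anti-CD40 value came near the lowest control, and both groups were tight. The log2 fold change was -3.37 with a standard error of 0.14 (95% interval -3.69 to -3.05, limma adjusted p = 1.65e-07), the 61st largest decrease among the 13807 genes. It remained past the threshold in all 18 alternative fits, between -3.54 and -3.0.

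Cyp4f15 read 16, 20 and 27.2 FPKM after anti-CD40, and 44.3 to 61.8, median 49.6, in the controls. The groups were apart, with a log2 fold change of -1.30 (standard error 0.17, limma adjusted p = 1.68e-04), also past the threshold in all 18 alternatives. Cyp4f13 read 3.45, 5.89 and 3.93 FPKM after anti-CD40 against 6.27 to 23.2, median 10.6, in controls. Anti-CD40 mouse 5 came close to control mouse 4, the lowest control, without reaching it. Its log2 fold change was -1.35 (standard error 0.35, limma adjusted p = 0.00967), a call that did not hold once anti-CD40 mouse 2 was left out (limma adjusted p = 0.051).

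Cyp4v3 stood at 27.5, 33.8 and 34.9 FPKM in the anti-CD40 mice. The controls ranged from 29.6 to 60.9 with a median of 57.6. Control mouse 4, at 29.6, lay among the anti-CD40 values, and the other 5 controls were at or above 51.8. The log2 fold change of -0.68 (standard error 0.22, 95% interval -1.17 to -0.20) passed the test (limma adjusted p = 0.0268) but lost it in 8 of 18 alternatives, among them leaving out anti-CD40 mouse 2, 5 or 9 or control mouse 3 or 11, with adjusted p from 0.0506 to 0.116. Without control mouse 4 it was -0.84 (limma adjusted p = 0.000196).

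Cyp4a10 and Cyp4a14 are the strongly PPAR-alpha-responsive members. Cyp4a10 read 45.1, 35.9 and 87.5 FPKM after anti-CD40, and 51.5 to 321, median 170, in the controls. Anti-CD40 mouse 9 was above control mouse 4 and below the other controls. The log2 fold change was -1.54 (standard error 0.53, 95% interval -2.71 to -0.38, limma adjusted p = 0.0347). The call was kept in 9 of 18 alternatives and was lost without anti-CD40 mouse 2 or 5 (adjusted p = 0.112 and 0.134) or without control mouse 3, 8, 11 or 12 (adjusted p from 0.0575 to 0.06). Cyp4a14, the most abundant of the 10 by FPKM, read 686, 357 and 874 after anti-CD40 and 479 to 2676, median 1200, in the controls. All 3 anti-CD40 values lay below that median, but the groups overlapped and the log2 fold change of -1.01 (95% interval -2.09 to 0.08) did not pass (limma adjusted p = 0.119). It passed only without control mouse 4 (limma adjusted p = 0.0233).

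Cyp4a31, a close relative and neighbour of Cyp4a10, lay on the other side. It read 3.80, 2.53 and 5.79 FPKM after anti-CD40 and 0.346 to 3.41, median 1.28, in the controls. The 2 highest controls, mice 11 and 12, reached into the anti-CD40 range, and the log2 fold change of 1.41 (95% interval 0.15 to 2.67) did not pass the test (limma adjusted p = 0.0663). It passed in 4 of 18 alternatives, including those without control mouse 11 (1.61, adjusted p = 0.0436) or 12 (1.66, adjusted p = 0.027). Cyp4a32, the next gene of the cluster, read 0.211, 0.393 and 0.934 FPKM against 0.137 to 0.521, median 0.370, in the controls. Its groups overlapped, and the log2 fold change of 0.38 (95% interval -0.56 to 1.32) did not pass (limma adjusted p = 0.489).

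Cyp4a12a and Cyp4a12b encode the Cyp4a enzymes that are abundant in male rodents, and both were near the bottom of the range. Cyp4a12a read 0.244, 0.238 and 0.279 FPKM after anti-CD40 and 0.0655 to 1.35, median 0.208, in the controls. The anti-CD40 mice sat close together in the middle of a control range that spanned 20.6-fold, with a log2 fold change of -0.06 (95% interval -1.43 to 1.30, limma adjusted p = 0.946). Cyp4a12b read 0.0412, 0.109 and 0.0235 FPKM after anti-CD40 and 0.0220 to 0.152 in controls, too low for the fit across genes. Its values correspond to between 1 and 6 reads a mouse if the smallest step between values is 1 read, so a difference was not detectable at this depth. Xist was at 2.23 to 3.82 FPKM in all 9 mice, over an interval the table also gives to Tsix. The Y-linked genes Ddx3y, Eif2s3y, Kdm5d and Uty were at the floor in all 9. This is the pattern of female livers, although the labels do not give the sex.

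**Figure D2:**
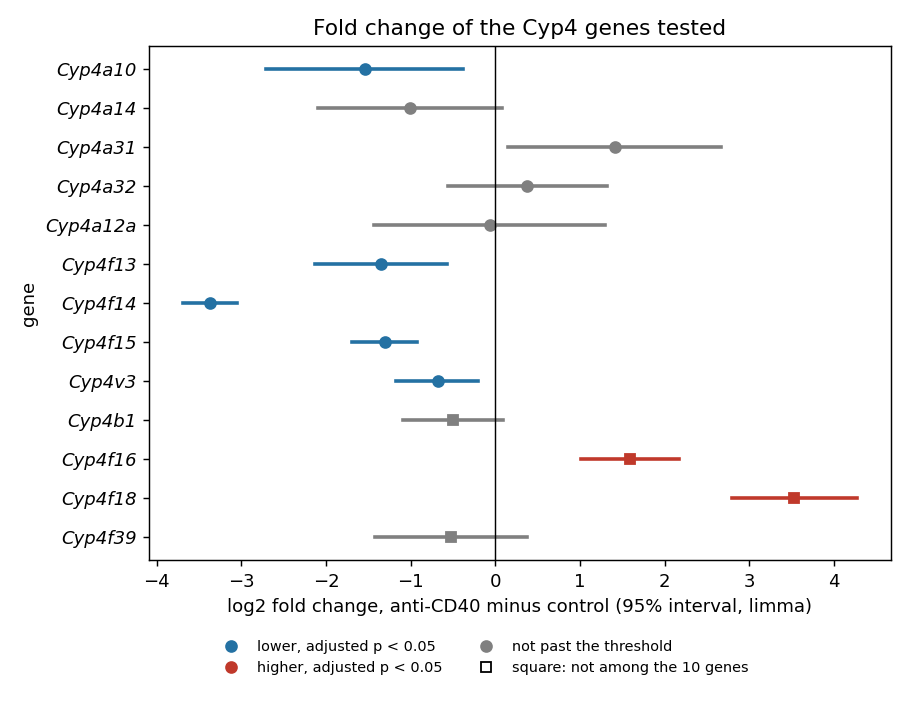
Log2 fold change (anti-CD40 minus control) with its 95% interval for each family 4 gene tested, with circles for the genes described and squares for other family 4 genes, blue for lower, red for higher and grey for not past the adjusted p threshold of 0.05. Cyp4f14 lies farthest left at -3.37 and Cyp4f18 farthest right at 3.53.

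Some Cyp4a transcripts are alike enough that reads could be split between them. Over the longest protein-coding transcripts of GENCODE M21, Cyp4a12a and Cyp4a12b were 98.3% identical and shared 37.0% of the 50-base windows in their last 500 bases, where these 3′-end libraries read. Cyp4a32 was 97.2% identical to Cyp4a10 and 96.0% to Cyp4a31 over its annotated 1530 bases, with 55.7% and 47.0% of its end windows found in them, so its values are uncertain. Cyp4a10 and Cyp4a31 shared 5.99% of their end windows, Cyp4f13 and Cyp4f14 at most 2.66%, and Cyp4f14 and Cyp4f15 0.222%.

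The genes were next compared with one another inside each mouse, where the scaling between libraries cancels in a ratio of FPKM. In the log2 ratios the added 0.1 FPKM makes this inexact for low genes. Cyp4a31 was 8.43, 7.04 and 6.62% of Cyp4a10 FPKM in anti-CD40 mice 2, 5 and 9, and 0.639 to 1.30% in the controls. Every anti-CD40 ratio was thus above every control ratio, although neither gene alone separated the groups. On the log2 scale the fold changes of Cyp4a31 and Cyp4a10 differed by 2.95 (exact 2-sided permutation p = 0.0238, n = 3 and 6, the smallest this design can give), and by 2.85 to 3.05 with any 1 mouse left out. Cyp4a14 was 1520, 996 and 999% of Cyp4a10 after anti-CD40 and 692 to 930% in the controls, a smaller separation of 0.54 that ranged from 0.34 to 0.64 with any 1 mouse left out (exact permutation p = 0.0238).

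Cyp4f14 changed places with Cyp4f15. In the controls Cyp4f14 was 236 to 293% of Cyp4f15, and in the anti-CD40 mice 71.5, 54.0 and 58.2%. The difference in log2 fold change was -2.06 (exact permutation p = 0.0238, -2.18 to -1.98 with any 1 mouse left out). Against its immediate neighbour Cyp4f13, Cyp4f14 differed by -2.01, between -2.25 and -1.69 with any 1 mouse left out (exact permutation p = 0.0238). Cyp4f13 and Cyp4f15 differed from each other by -0.05 (exact permutation p = 0.905), with control and anti-CD40 log2 ratios of -2.18 ± 0.46 and -2.23 ± 0.51 (SD), which bounds the comparison only loosely.

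In all, 45 pairs were compared and 23 had ratios that did not overlap between groups, including all 9 pairs with Cyp4f14. Over all pairs of genes tested the share without overlap was 44.9%, so the number of such pairs is near the background. The adjusted p of these 23 was 0.0466 over the 45 pairs. It rests on many pairs reaching the smallest possible p: with a pseudocount of 0.01 there were 19 such pairs and the smallest adjusted p was 0.0564.

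**Figure D3:**
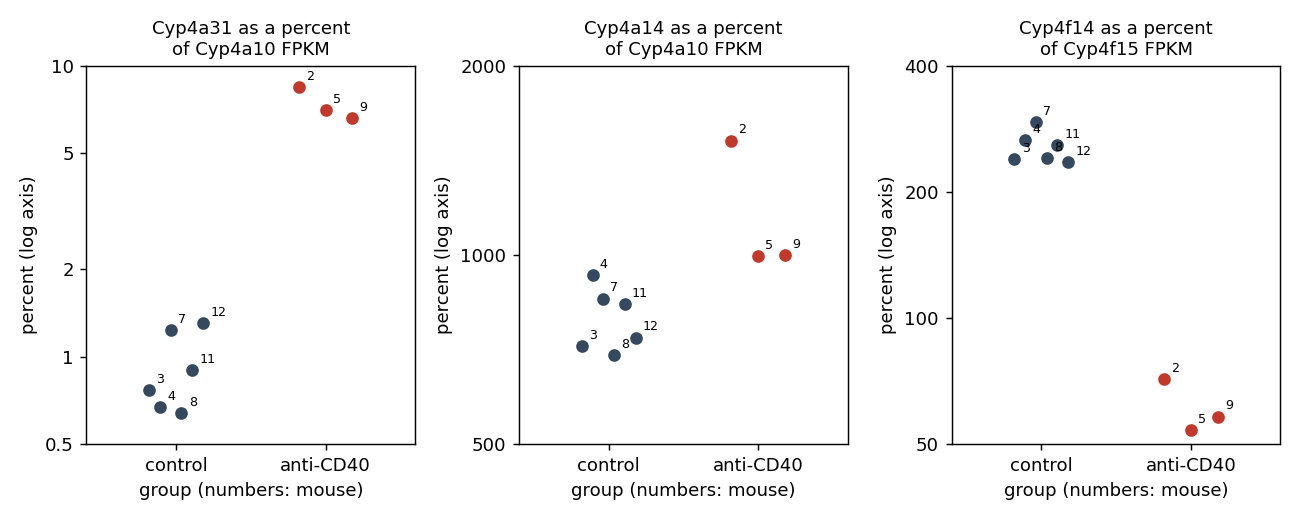
FPKM of one gene as a percent of another in each mouse (log axes, points numbered by mouse): Cyp4a31 of Cyp4a10, Cyp4a14 of Cyp4a10, and Cyp4f14 of Cyp4f15. The groups are apart in each panel, with Cyp4a31 at 0.639 to 1.30% of Cyp4a10 in controls and 6.62 to 8.43% after anti-CD40.

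By mean FPKM the order in control livers was Cyp4a14 (1390), Cyp4a10 (179), Cyp4f14 (130), Cyp4v3 (52.6), Cyp4f15 (51.3), Cyp4f13 (12.2), Cyp4a31 (1.71), Cyp4a12a (0.407), Cyp4a32 (0.343) and Cyp4a12b (0.0694). FPKM divides by gene length although these libraries read 1 end of each transcript, so the order between genes is approximate. Cyp4a10 and Cyp4f14 could not be ordered, since Cyp4a10 was higher in 4 of 6 controls, and the same held for Cyp4v3 over Cyp4f15 (4 of 6). Cyp4a12a was above Cyp4a32 in 2 of 6 controls. After anti-CD40 the order began Cyp4a14 (639), Cyp4a10 (56.2), Cyp4v3 (32.1), Cyp4f15 (21), Cyp4f14 (12.7), and each of these was above the next in 3 of 3 mice. Cyp4f13 (4.42) and Cyp4a31 (4.04) then could not be ordered, with Cyp4f13 higher in 1 of 3.

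The controls themselves varied by gene. The SD of log2(FPKM + 0.1) over the 6 control mice was 0.96 for Cyp4a10, 0.87 for Cyp4a14, 1.07 for Cyp4a31 and 1.20 for Cyp4a12a, larger than in 95.7% to 98.2% of the genes tested. Cyp4f14 (0.16) and Cyp4f15 (0.19) varied less than the median gene (0.30). Control mouse 4 was the lowest control for 7 of the 10 genes, and control mouse 12 was among the 2 highest for 9. With the group means taken out, Cyp4a10 correlated over the 9 mice with Cyp4a14 (r = 0.97) and Cyp4a31 (r = 0.93), and Cyp4f14 with Cyp4f15 (r = 0.82). These are descriptions over livers that share preparation and scaling. Measured the same way over all genes tested, the genes most like Cyp4a10 were led by Mcm7, a replicative helicase subunit (r = 0.99), those most like Cyp4a14 by Mmadhc (r = 0.99), and those most like Cyp4f14 by the complement protease gene C1s1 (r = 0.93).

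Of the 10 other family 4 genes listed, 4 could be tested, and 2 were higher and 0 lower (1 lower without control mouse 12). Over all genes tested 23.5% were higher and 21.7% lower, so a count over 4 genes says little. Cyp4f18, the leukotriene B4 hydroxylase of neutrophils, read 3.23, 4.71 and 3.06 FPKM after anti-CD40 and 0.0700 to 0.470, median 0.222, in the controls. The groups were far apart (log2 fold change 3.53, standard error 0.33, limma adjusted p = 1.72e-05). All 10 neutrophil marker genes tested were also higher, beside 23.5% of all genes tested. Mpo, Elane and Cd177 of the same list were under the filter. The summed FPKM of the list was 4230 to 5220 after anti-CD40 against 19.3 to 157 in controls, most of it from S100a8 and S100a9. The part of neutrophils in the Cyp4f18 value was not tested. Cyp4f16 rose from 0.666 ± 0.249 to 2.12 ± 0.198 FPKM (SD, n = 6 and 3), a log2 fold change of 1.59 (limma adjusted p = 6.73e-04). Cyp4b1, best known from lung, read 8.89 ± 0.848 after anti-CD40 and 13.2 ± 4.37 in controls, and Cyp4f39 0.0739 ± 0.0608 and 0.161 ± 0.114, with limma adjusted p of 0.150 and 0.319. Cyp4f17 was under the filter, and Cyp4a29, Cyp4a30b, Cyp4f37, Cyp4f40 and Cyp4x1 were at the floor in every mouse.

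Most hepatocyte marker genes were lower as well. Of 14 hepatocyte marker genes tested, 10 were lower and 2 higher (1 higher without anti-CD40 mouse 5 or with no filter). Over all genes tested 21.7% were lower and 23.5% higher. The 2 that rose were Apob (log2 fold change 0.74) and Fgb (0.88), while Hnf4a (-0.44) and Arg1 (-0.2) did not pass the test. The summed FPKM of the markers was 23600 to 29000 after anti-CD40 and 46300 to 90700 in controls. Alb, the albumin gene, had the largest fall among the 14, at 933 ± 151 against 5040 ± 937. In bulk tissue, fewer hepatocytes and less RNA of a gene per hepatocyte cannot be told apart. The acute-phase genes Saa1, Saa2 and Saa3 together took 25.4% to 25.9% of summed FPKM after anti-CD40 and 0.0449% to 0.38% in controls, which lowers the share left for every other gene. With these 3 genes left out and each mouse rescaled, the middle of all genes tested shifted to a log2 fold change of 0.35, and each value here moved up by about as much: Cyp4f14 had -3.0, Cyp4f15 -0.94, Cyp4f13 -0.99, Cyp4a10 -1.18 (limma adjusted p = 0.0777), Cyp4v3 -0.32 (0.218) and Cyp4a31 1.76 (0.0221) in that fit. Pancreatic markers summed to 1220 FPKM in anti-CD40 mouse 5 and to between 28.1 and 190 in the other 8 mice.

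PPAR-alpha works with RXR partners and coactivators. Of 12 receptors and coactivators tested, 3 were lower and 0 higher: Rxra, the PPAR partner (32.8 ± 2.32 FPKM after anti-CD40, 56.9 ± 16.2 in controls, log2 fold change -0.74, limma adjusted p = 0.0201), Rxrg (-0.75, 0.0275) and the coactivator gene Ppargc1b (-1.11, 0.0324). That is 25.0% lower, beside 21.7% of all genes tested. The 3 calls depended on the scaling and on single mice. With Saa1, Saa2 and Saa3 left out 0 were lower and 3 (Med1, Ncoa1 and Ncoa2) higher. In that fit 1647 of all 13860 genes tested were lower and 5635 higher. With no filter on low values, or without anti-CD40 mouse 2, 0 were lower. Without anti-CD40 mouse 5 or 9 or control mouse 8, 1 was lower. Ppara itself read 11.9 ± 3.07 and 17.9 ± 6.95 FPKM, a log2 fold change of -0.51 (95% interval -1.27 to 0.24) that did not pass (limma adjusted p = 0.247). The other genes tested, Ppard, Pparg, Rxrb, Ppargc1a, Med1, Ncoa1, Ncoa2 and Lpin1, had log2 fold changes from -0.33 to 0.37 with none past the threshold. Among 35 target genes of PPAR-alpha tested, 13 were lower, 3 higher and 19 not called, with a median of -0.31. The share lower was 37.1%, beside 21.7% of all genes tested. With the Saa genes left out 8 were lower and 4 higher, beside the 1647 lower and 5635 higher over all genes in that fit. The fatty acid carrier gene Fabp1 was lower (3890 ± 532 against 17600 ± 8280 FPKM, log2 fold change -2.05, limma adjusted p = 9.17e-04), as were Acot3 (-2.60), an acyl-CoA thioesterase of peroxisomes, and Acaa1b (-2.19), a peroxisomal thiolase. Fgf21, a fasting hormone, was higher (9.82 ± 1.73 against 1.33 ± 1.57 FPKM, 3.62, adjusted p = 0.00688). The peroxisomal enzyme gene Ehhadh did not pass the test (-1.12, adjusted p = 0.177).

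Genes that act beside or after omega-hydroxylation were read against the 21.7% of all genes tested that were lower. Of 14 genes for electron donors and haem handling, 9 were lower and 1 higher (2 higher with quantile normalization, with the Saa genes left out or without control mouse 12), with a median of -0.63. Cyb5a, the cytochrome b5 that passes electrons to P450 enzymes, fell from 2760 ± 285 to 837 ± 108 FPKM (log2 fold change -1.72, limma adjusted p = 5.25e-06), and Cyb5b (-1.92) and Cyb5r3 (-1.96) fell as well. Por, the reductase every microsomal P450 depends on, did not pass (49.2 ± 13.2 against 59.5 ± 19.5 FPKM, -0.25, adjusted p = 0.456). Hmox1, which degrades haem, rose (1.35, adjusted p = 3.46e-04). Of 16 genes for the later steps of omega-oxidation, 10 were lower and 1 higher (2 with quantile normalization), with a median of -1.15. The alcohol dehydrogenase gene Adh1 fell from 866 ± 155 to 213 ± 14 FPKM (-2.0, adjusted p = 9.30e-06), while Adh7, whose interval the table also gives to another transcript, was 4.79 ± 0.368 in controls and 24.0 ± 3.72 after anti-CD40 (2.29, adjusted p = 6.66e-07). Acot3 and Acaa1b belong to this list too.

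Many P450 genes of other families fell too. The counts here stand beside 21.7% lower and 23.5% higher over all genes tested. Of 14 arachidonate-metabolising P450 and epoxide hydrolase genes, 11 were lower and 0 higher (1 higher with the Saa genes left out), with a median of -1.51. The epoxygenase genes Cyp2c37, Cyp2c54, Cyp2c50 and Cyp2c29 were lower, with log2 fold changes of -5.35, -5.26, -5.14 and -4.06, and Cyp2e1, which hydroxylates fatty acids beside the omega carbon, fell from 1420 ± 404 to 267 ± 124 FPKM (-2.49, limma adjusted p = 2.10e-04). Over all 57 P450 genes of other families that could be tested, 42 were lower and 2 higher, with a median of -1.73. Of genes with higher levels in male liver, as Cyp4a12a is known to have, 8 of 13 were lower and 0 higher (median -1.58). With the Saa genes left out 1 was higher. Some of these were near the floor, such as Mup7 at 0.117 to 0.448 FPKM in controls. Of genes with higher levels in female liver, 15 of 17 were lower and 0 higher (median -3.07). The lists overlap, so their counts are not independent. Tested P450 genes in the arachidonate, male-liver and female-liver lists are also among the 57.

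**Figure D4:**
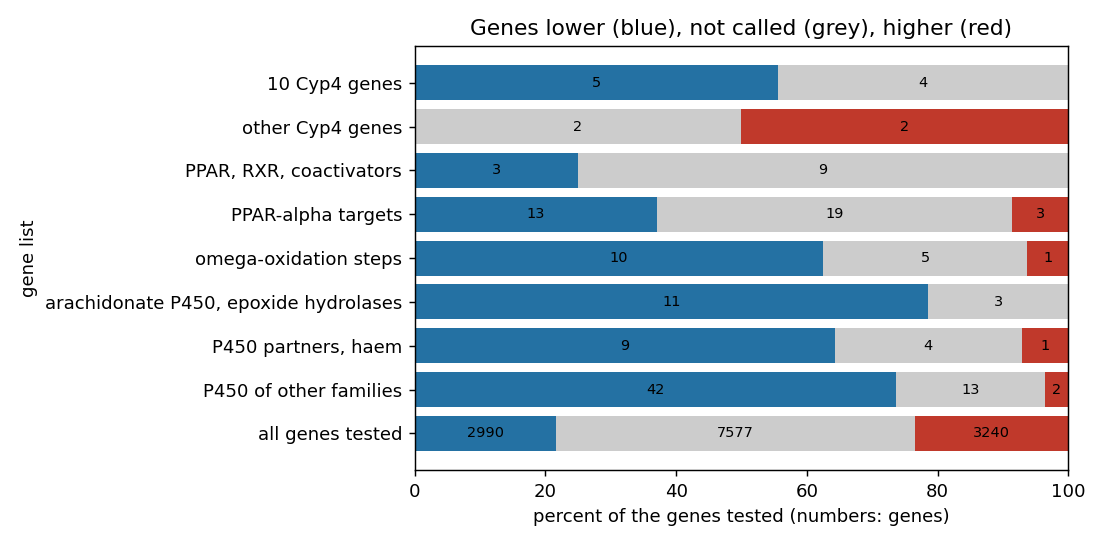
Percent of the genes tested in each list that were lower (blue), not called (grey) or higher (red) after anti-CD40, with the number of genes in each segment. Of the 10 family 4 genes 5 were lower and 4 not called, beside 42 of 57 P450 genes of other families and 2990 of 13807 over all genes.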

How the data were processed

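Livers were stored in TRIzol, RNA was isolated with the RNeasy Mini kit, and 3′-end libraries (QuantSeq FWD) were sequenced on a NextSeq 500. The authors aligned reads to mm10 with STAR (RNA-Seq Alignment 1.1.0, up to 14 mismatches) and ran Cufflinks and CuffDiff (Cufflinks Assembly & DE 2.1.0). They deposited FPKM with a floor of 0.01; the annotation is not given in the sources used here. CuffDiff was not rerun, since it needs the reads. Read totals are unknown, so no counting intervals were given. Steps between low values gave a relative value of 1 read of 0.884 to 1.15 among mice, and 85.7% of 2899 low genes came out whole (tolerance 4%).

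The 15 genes with a failed estimate were left out (24326 kept). Groups came from the sample labels. Genes averaging 0.1 FPKM or more (13807) were tested as log2(FPKM + 0.1) with limma 3.58.1 in R 4.3.3 (lmFit, eBayes with trend, 2-sided, Benjamini-Hochberg at 0.05). A fold change is on this log2 scale and is understated in low genes. The step was tested on simulated data. Ratios used exact permutation over all 84 splits of the mice, while the p given above for single genes is from limma. For the 5 genes called, exact permutation gave p = 0.0238 for Cyp4f13, Cyp4f14 and Cyp4f15, 0.0476 for Cyp4a10 and 0.0714 for Cyp4v3. Python 3.11.15, numpy 2.4.6, pandas 2.3.3, Biopython 1.88 and matplotlib 3.10.9 did the rest. Promoters came from RefSeq (GRCm38.p6).

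The genes described and the gene lists were chosen with earlier results of these data known, so their counts are descriptions. Named genes were all members, all other family 4 genes, the tested PPAR receptors and coactivators, up to 4 called genes of largest change in each other list, and Cyp2e1, Ehhadh, Por and Cyb5a; some genes the rule takes are not reported here. The genes most like a member were taken by Pearson correlation with group means removed. Alternatives changed the pseudocount (1 and 0.01), the filter (none, or a mean of 1), the scaling (quantile, median-of-ratios, or Saa1, Saa2 and Saa3 left out), eBayes (no trend, robust), and left out each mouse.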

Additional observations from a re-analysis of the deposited data

Results flagged for a closer look

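The 6 control mice were examined in each of 75 genes for a single mouse far from the other 5. A mouse was singled out in 2 genes, where chance gives about 3.75. The genes come from the same mice and are not independent. Cyp4v3 was lowest in control mouse 4 (29.6 FPKM), whose gap to the next control was 0.775 of the whole control range. Adh1 was also lowest in control mouse 4 (575 FPKM), with a gap of 0.662 of the range. In that mouse the neutrophil markers summed to 157 FPKM, the highest of the 6 controls, mostly from S100a8 (99.2) and S100a9 (50.3). The part of neutrophils in the Cyp4v3 and Adh1 values was not tested.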

How the results depend on the processing

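Cyp4f14 and Cyp4f15 were past the threshold in all 18 alternatives. The number of family 4 genes called, 5, was 3 with no filter, 3 with quantile normalization and 3 when groups had only to be free of overlap, a rule chosen after seeing the data, and 2 to 6 with 1 mouse left out. Those lower were 3 with no filter, 3 with quantile normalization, 3 with Saa1, Saa2 and Saa3 left out, and 2 to 6 with 1 mouse left out; those higher were 1 with a pseudocount of 1, 1 with the Saa genes left out and 0 to 1 with 1 mouse left out. Over all genes, leaving out the Saa genes gave 1647 lower and 5635 higher. Pairs past the threshold fell from 23 to 0 with a pseudocount of 0.01 and were 0 to 0 with 1 control mouse left out, where the smallest exact p is 0.0357 and the smallest adjusted p was 0.0595 to 0.0699, while 23 to 27 pairs were free of overlap. With 1 anti-CD40 mouse left out, the smallest exact p of 0.0714 cannot pass, so that count was not run.

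Values that turned sign had all missed the threshold. With a pseudocount of 0.01 Cyp4a12a was 0.1, with the Saa genes left out 0.2, and with 1 mouse left out -0.29 to 0.33. Cyp4a32 was -0.02 with quantile normalization and -0.09 to 0.78 with 1 mouse left out, below 0 without anti-CD40 mouse 9. With quantile normalization Ppard was -0.26, Pparg -0.28, Ncoa1 -0.17 and Por 0.04. Pparg was -0.02 with a pseudocount of 1 and -0.23 to 0.19 with 1 mouse left out. With the Saa genes left out Rxrb was 0.08, Lpin1 0.04 and Por 0.11. With 1 mouse left out Ppargc1a was -0.05 to 0.63 and Lpin1 -0.87 to 0.14. The cause was not tested. Of 1342 values for 75 named genes, 1262 kept direction and call, 49 lost the call, 10 gained it and 21 turned sign. No paired analysis was possible because the groups share no replicate numbers.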
